A study of Chlorocebus sabaeus with 18 samples.

Results

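The 40 genes described here encode heterogeneous nuclear ribonucleoproteins (hnRNPs) and other RNA-binding regulators of splicing outside the SR protein family. They were taken by gene symbol from a list, and each was read from the transcript cluster, the array's unit for a gene, with the highest mean signal. All 40 were found among the 135750 transcript clusters of the array, and all 40 passed the filter on low signal, a mean log2 value above 4.14 over all arrays. They hold 1823 of the 483868 features of the exon-level table, 1171 exon regions and 652 exon-exon junctions, of which 1346 were tested. For 7 members (HNRNPA3, HNRNPK, PCBP2, RBMX, MATR3, ESRP2 and KHSRP) the cluster carries further gene symbols too, so that its signal need not come from the member alone. For 6 members (RALY, HNRNPF, HNRNPH1, HNRNPK, TAF15 and TIAL1) more than 1 cluster carries the symbol, and the others were not examined. HNRNPD and HNRNPDL, and RBM5 and RBM6, are neighbours in the annotation of the green monkey.

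Total RNA of COS-7 cells, a kidney line of the green monkey Chlorocebus sabaeus, was measured on 18 arrays of the Clariom D Human type, with 6 groups of 3. The study concerns TRA2A, an RNA-binding splicing regulator, and the repeat RNA of FXTAS, a tremor and ataxia syndrome of FMR1 premutation carriers. Control cells have no transfection given, and their condition label names COS-7 for array 1, COS-6 for array 2 and COS-5 for array 3, while the cell line is given as COS-7 for all. CGG cells received the 5' untranslated region of FMR1 with 60 CGG repeats, TRA2A OE cells overexpressed TRA2A (their titles also name GFP), and TRA2A KD cells received siRNA against TRA2A. CGG TRA2A OE and CGG TRA2A KD cells received the repeat construct together with overexpression or siRNA. No group received the construct without repeats, and the groups beside control differ from it by transfection as well as by the agent. No group with a control siRNA or an empty vector is given either. Between overexpression and knockdown, the level of TRA2A and the kind of treatment therefore cannot be told apart. CGG array 1 and TRA2A KD array 3 were hybridised again, and separate cultures are not stated for the arrays within a group, so p-values measure the spread between arrays, which may be technical.

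TRA2A itself had mean log2 values of 14.62 in control, 14.57 in CGG, 18.53 in TRA2A OE, 11.55 in TRA2A KD, 17.16 in CGG TRA2A OE and 11.82 in CGG TRA2A KD cells. The 3 control arrays scored -79.5, -63.6 and -30.7 on the first principal component of all arrays, and the other 15 scored from -10.7 to 36.2. The controls thus stand apart from every treated group, and in each comparison with control the agent and the transfection cannot be told apart. Probes are designed for human transcripts, and all 40 symbols are also present in the RefSeq annotation of the green monkey. Signals of the fibroblast-like markers ran from 6.12 (COL1A2) to 15.86 (VIM). The epithelial markers ran from 3.78 (OVOL1) to 13.99 (KRT8), with CDH1 at 7.25 and EPCAM at 12.46. Leukocyte markers ran from 4.12 (CD14) to 7.95 (CD68) and endothelial markers from 3.25 (CDH5) to 6.66 (VWF). Red cell markers ran from 3.7 (HBB) to 6.99 (HBA1). Levels of different probes are not compared, and these signals do not tell which cell types are present.

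Most hnRNPs are abundant nuclear proteins that coat nascent transcripts, and many of them repress exons by binding near splice sites, in opposition to SR and Tra2 proteins that promote exon inclusion. Several hnRNPs and their relatives regulate their own transcripts through exons that send the message to nonsense-mediated decay. RBFOX2, ESRP1 and QKI are regulators whose level differs between tissues and which are known for switching exons between epithelial, mesenchymal and other cell states.

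Differences between the 6 groups were small for most members. The range of the 6 group means had a median of 0.405 on the log2 scale over the 40 members, from 0.17 for HNRNPD, an AU-rich element binder, to 0.99 for RALY, a relative of HNRNPC. Mean signals ran from 4.83 for ESRP2 to 17.96 for HNRNPK, which reflects probes as well as RNA and gives no order of expression. In bulk RNA, a smaller number of cells of one kind and less RNA per cell cannot be told apart.

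**Figure D1:**
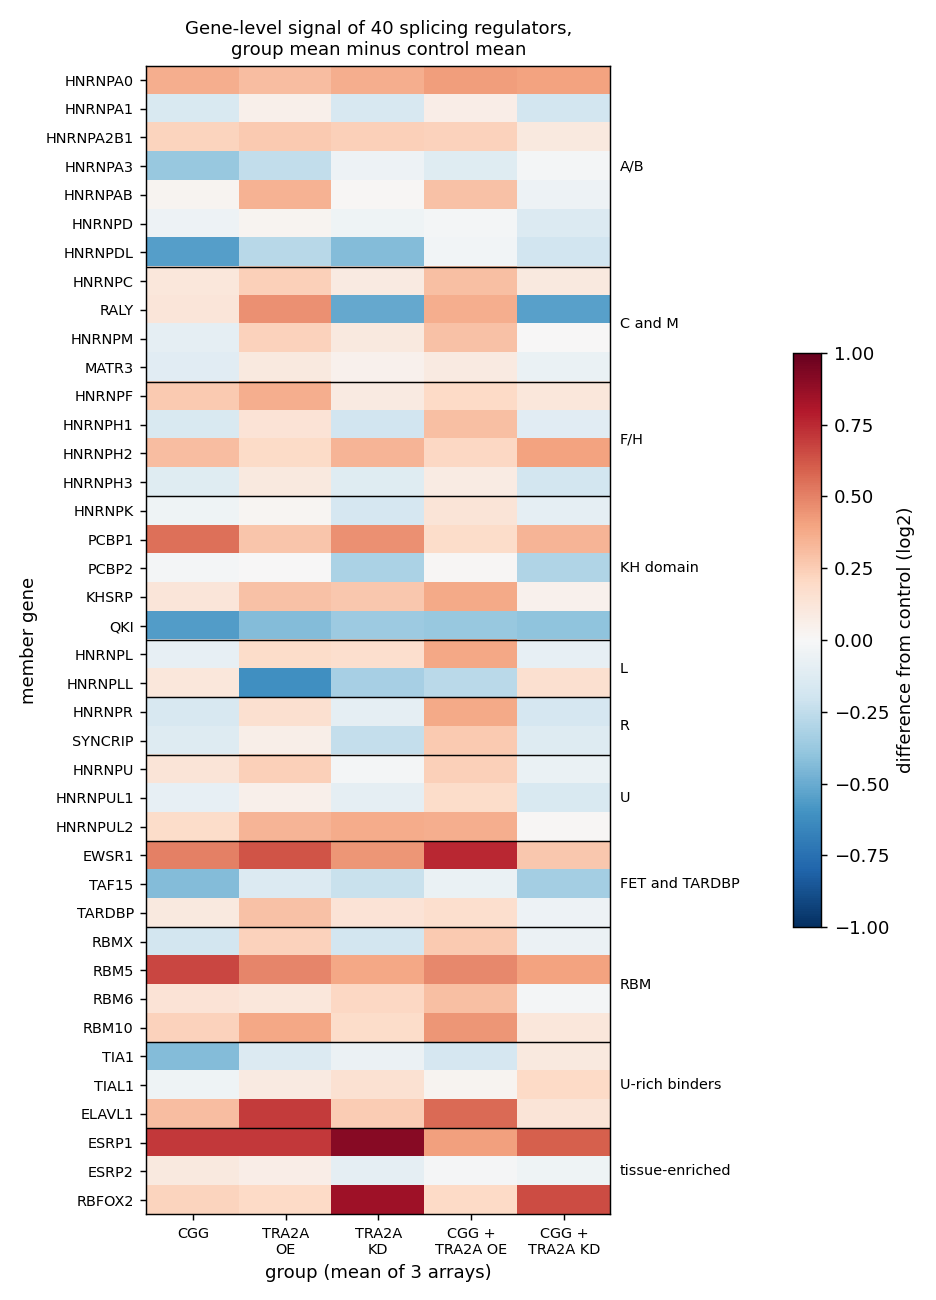
Heat map of the 40 members (rows, ordered by family) in the 5 treated groups (columns), coloured by the group mean minus the control mean on the log2 scale, n = 3 arrays a group. RALY is above control in both TRA2A OE groups and below it in both TRA2A KD groups, whereas ESRP1 is above control in every treated group.

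RALY was the only member called between overexpression and knockdown of TRA2A, in each background. Its log2 values were 13.24, 13.60 and 13.50 in TRA2A OE and 12.77, 12.15 and 12.53 in TRA2A KD cells. With the repeat construct they were 13.48, 13.39 and 13.18 under overexpression and 12.12, 12.55 and 12.69 under knockdown. Control arrays lay between at 12.93, 13.00 and 13.05, and CGG arrays at 13.07, 13.08 and 13.18. Every overexpressing array was above every knockdown array in each background, and the control and CGG arrays fell in the gap, apart from 1 tie at 13.18.

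RALY was higher in TRA2A OE than in TRA2A KD cells by 0.96 ± 0.19 (log2, SE), a 1.95-fold difference with an adjusted p of 0.0226 in limma. Within CGG cells the difference was 0.90 ± 0.19, or 1.86-fold, with an adjusted p of 0.04. These comparisons share no array. RALY was the 1 member of 40 called in each, where 0.405% and 0.379% of all tested transcript clusters were called. Set against control or CGG cells alone, no change of RALY passed the test: overexpression against control gave 0.45 (adjusted p = 0.257), knockdown against control -0.51 (0.22), overexpression within CGG 0.24 (0.761) and knockdown within CGG -0.66 (0.325).

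The probes along RALY moved together. Of its 24 tested features, 23 had a higher mean in TRA2A OE than in TRA2A KD cells in each background, with medians of 0.80 without and 0.79 with CGG, and 20 lay higher in each background with no overlap between the groups, beside 13.3% and 13.5% of all features. Tested one by one on their own signal, with no gene value subtracted, 10 of the 24 were called higher without CGG and 11 with CGG (adjusted p under 0.05 over all 230888 features). In all, 3.47% and 3.07% of features were called in these comparisons, 2.29% and 1.84% of features in the higher direction. Features of a gene share its RNA and its arrays and are no replicates. The gene-level call of RALY ended without TRA2A OE array 2 or 3 or TRA2A KD array 2 or 3 (adjusted p 0.0753 to 0.149). Within CGG it ended without any of 10 arrays: CGG 1, 2 or 3, TRA2A OE 2 or 3, TRA2A KD 3, CGG TRA2A OE 1 or 2, and CGG TRA2A KD 1 or 2 (adjusted p 0.0528 to 0.223). The difference stayed between 0.73 and 1.11 throughout. With the variance taken from the compared arrays alone RALY was not called in either background (adjusted p = 0.173 and 0.194), nor with rehybridisation as a covariate (0.0507 and 0.0527).

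The rest of the C and M family, HNRNPC, HNRNPM and MATR3, differed by 0.05 to 0.15 without and 0.17 to 0.29 with CGG. None of them was called. HNRNPC binds uridine-rich introns, HNRNPM binds G- and U-rich RNA, and MATR3 is a nuclear matrix protein. HNRNPM had 43 of 47 features higher in TRA2A OE than in TRA2A KD cells without CGG and 39 of 47 with it, with medians of 0.23 and 0.27.

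**Figure D2:**
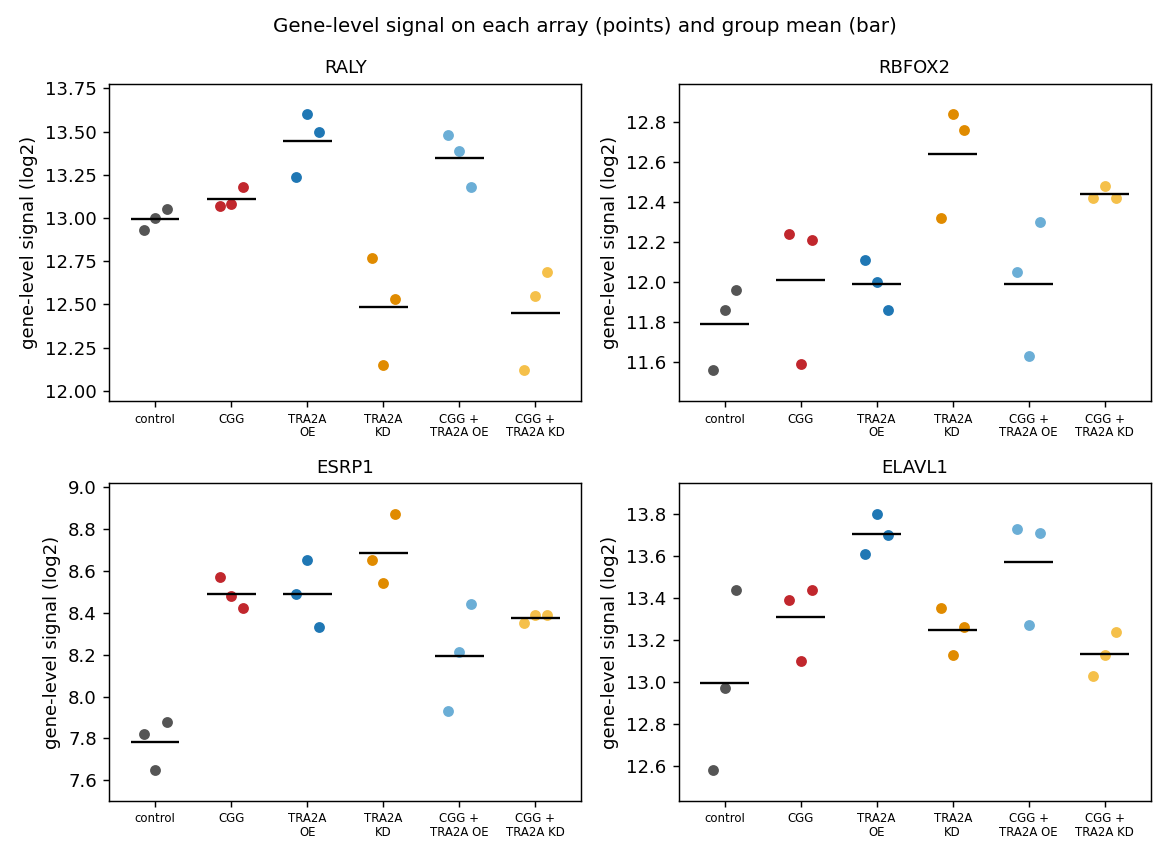
Log2 signal of RALY, RBFOX2, ESRP1 and ELAVL1 on each of the 18 arrays, by group, with a bar at the mean of 3 arrays. RALY is split by overexpression and knockdown in both backgrounds, RBFOX2 runs the opposite way, and the 3 control arrays of ESRP1 lie below all treated arrays.

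RBFOX2, a regulator that binds GCAUG elements beside alternative exons, ran opposite to RALY. Its values were 12.11, 12 and 11.86 in TRA2A OE and 12.32, 12.84 and 12.76 in TRA2A KD cells, and 12.05, 11.63 and 12.30 against 12.42, 12.48 and 12.42 with the construct. Control arrays were at 11.56, 11.86 and 11.96 and CGG arrays at 12.24, 11.59 and 12.21. All 6 knockdown arrays were above all other 12 arrays.

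At the gene level no difference of RBFOX2 passed the test: -0.65 without CGG (adjusted p = 0.329), -0.45 with CGG (0.592), and 0.85 ± 0.21 for knockdown against control (0.051). Its single features gave more. All 36 tested features had a lower mean in TRA2A OE than in TRA2A KD cells without CGG, and 35 of 36 with it, with medians of -0.72 and -0.61. Of these, 12 and 6 were called lower on their own signal, and 1.18% and 1.23% of all features were called in that direction. Within CGG cells 33 of 36 features were higher after knockdown, of which 2 were called higher, beside 0.281% of all features.

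ESRP1, an epithelial regulator of exon choice, was lowest in the controls. It read 7.82, 7.65 and 7.88 there, 8.57, 8.48 and 8.42 in CGG, 8.49, 8.65 and 8.33 in TRA2A OE, and 8.65, 8.54 and 8.87 in TRA2A KD cells. With the construct it read 7.93, 8.21 and 8.44 under overexpression and 8.35, 8.39 and 8.39 under knockdown. All 15 treated arrays were above the 3 control arrays. ESRP1 rose by 0.71 ± 0.17 in TRA2A OE (adjusted p = 0.0417) and by 0.90 ± 0.17 in TRA2A KD cells (0.00644), and read 0.71 ± 0.17 higher in CGG cells (0.0553, not called). It was the 1 member called in each of the first pair, where 1.25% and 1.55% of all clusters were called. These comparisons share the control arrays.

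The ESRP1 call for overexpression ended without control array 1 or 2, any TRA2A OE array, or CGG 3, TRA2A KD 1, CGG TRA2A OE 2, CGG TRA2A KD 1 or CGG TRA2A KD 2 (adjusted p 0.0502 to 0.189), while the call for knockdown was kept without any 1 of the 18 arrays and ended with the variance of the compared arrays alone. Of the 8 tested epithelial markers, 1 was called in CGG, 0 in TRA2A OE and 1 in TRA2A KD cells against control. CLDN4, a tight junction protein, was called higher in CGG cells by 2.16 (adjusted p = 0.000471) and in TRA2A KD cells by 2.55 (5.49e-05). CDH1, the epithelial cadherin, differed by -0.37 and -0.52 in the same comparisons (0.56 and 0.363). Of the 6 fibroblast-like markers, S100A4 was called higher in CGG by 1.10 (0.0215) and in TRA2A KD cells by 1.3 (0.00341), and VIM in TRA2A OE cells by 0.68 (0.0438). The mean over the epithelial markers was 8.20 in control, 8.34 in CGG, 8.30 in TRA2A OE and 8.56 in TRA2A KD cells. EPCAM lay between 12.39 and 12.55 and KRT8, an epithelial keratin, between 13.86 and 14.09 by group. The part of these markers in the ESRP1 result was not tested. ESRP2, the paralog of ESRP1, was not called in any comparison.

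Beyond RALY, most members lay slightly higher under overexpression than under knockdown of TRA2A. Without CGG, 28 of 40 had a higher mean in TRA2A OE than in TRA2A KD cells, with a median difference of 0.13, against 48.4% and a median of -0.01 over all tested clusters. With CGG it was 32 of 40 with a median of 0.23, against 51.2% and 0.01. The lean was not particular to the members. In the second list of splicing regulators, described below, 27 of 38 genes were higher without CGG (median 0.14) and 29 of 38 with it (median 0.18). The sign was the same in both backgrounds for 36 members, 28 of them higher and 8 lower, or 90%, where 57.9% of all tested clusters had the same sign. Among clusters with a mean above the 75th percentile, nearer to these members in signal, it was 64%. Across the 40 members the paired differences had a Pearson correlation of 0.83 and a Spearman correlation of 0.70, which is a description over genes measured on the same arrays and in part rests on RALY and RBFOX2 at its ends. One by one, RALY alone among them was called.

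**Figure D3:**
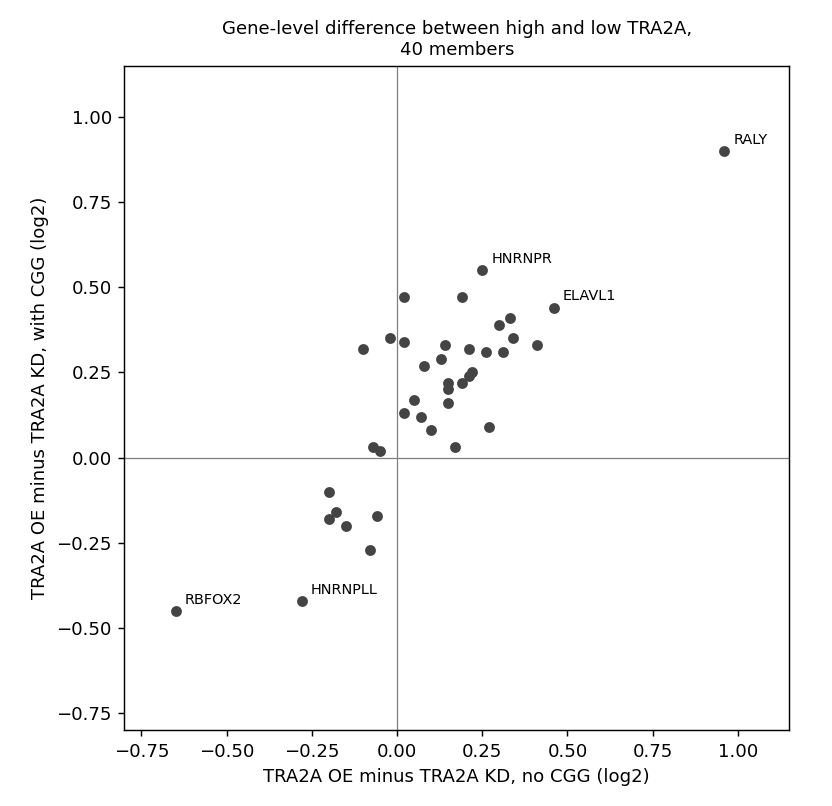
Difference of TRA2A OE minus TRA2A KD group means (log2) for each of the 40 members, without CGG on the horizontal axis and with CGG on the vertical axis, n = 3 arrays a group. RALY (0.96, 0.90) and RBFOX2 (-0.65, -0.45) lie at the ends, and 28 members are higher on both axes.

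The non-overlap of arrays gives the same picture by count. With CGG, the arrays of 22 of 40 members did not overlap between overexpression and knockdown, 21 higher and 1 lower, beside 14.5% of all clusters (7.94% higher, 6.51% lower). Without CGG it was 12 members, 9 higher and 3 lower, beside 14.1% (6.86% and 7.2%). In the second list 17 of 38 genes did not overlap with CGG, 14 higher and 3 lower, and 10 without CGG, 8 higher and 2 lower. Overexpression within CGG cells left 18 members without overlap, 17 higher and 1 lower, beside 14.4% of clusters (9.24% and 5.12%), and 0 of the 40 were called, with 9 at an unadjusted p under 0.05 in limma, where 0.0383% and 9.01% of all clusters were. For knockdown within CGG cells 9 members did not overlap, 5 higher and 4 lower, beside 11.7% (7% and 4.73%), and 0 were called beside 0.147%, with 3 at an unadjusted p under 0.05 beside 7.17%.

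In the R family, HNRNPR and SYNCRIP, close relatives that bind RNA in the nucleus and the cytoplasm, stood higher under overexpression than under knockdown. HNRNPR read 15.94, 15.98 and 16.22 in CGG TRA2A OE against 15.72, 15.22 and 15.56 in CGG TRA2A KD cells, and 15.62, 15.35 and 15.56 in CGG cells, so that the overexpressing arrays were above the other 6. The difference was 0.55 with CGG (adjusted p = 0.325) and 0.25 without. All 27 tested features of HNRNPR had a higher mean under overexpression in both backgrounds, and 2 of them were called with CGG. SYNCRIP differed by 0.30 without and 0.39 with CGG, at 37 of 38 and 34 of 38 features.

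Among binders of U-rich RNA, ELAVL1 (HuR), which stabilises messages with AU-rich elements, was the one that lay higher. It read 13.61, 13.80 and 13.70 in TRA2A OE against 13.35, 13.13 and 13.26 in TRA2A KD cells, and 13.73, 13.27 and 13.71 against 13.03, 13.13 and 13.24 with the construct. Neither pair of groups overlapped. Its differences of 0.46 and 0.44 were not called at the gene level, and 1 of its 14 features was called higher with CGG. TIA1 and TIAL1, stress granule proteins that promote exons with weak 5' splice sites, lay on the other side. TIAL1 differed by -0.06 without and -0.17 with CGG and TIA1 by -0.08 and -0.27, neither called, and 28 of the 37 features of TIA1 were lower in each background.

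The A/B proteins HNRNPA0, HNRNPA1, HNRNPA2B1, HNRNPA3, HNRNPAB, HNRNPD and HNRNPDL, the family that includes the best studied exon repressors, had medians of 0.07 without and 0.13 with CGG, and none was called. HNRNPA1 differed by 0.21 and 0.24, at 31 of 36 features in each background. The F/H proteins, which bind runs of G, had medians of 0.25 and 0.17, with HNRNPH1 at 0.33 and 0.41. The U proteins, scaffold-type nuclear RNA binders, had medians of 0.14 and 0.33, and 41 of the 42 features of HNRNPU were higher under overexpression with CGG.

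Among KH-domain proteins, PCBP2, a poly(C) binder, read 17.32, 17.35 and 17.24 in TRA2A KD and 17.33, 17.26 and 17.37 in CGG TRA2A KD cells, below all 12 other arrays, which lay from 17.51 to 17.70. The difference of 0.31 in each background was not called, and its cluster carries further symbols. KHSRP, which promotes decay and microRNA processing, differed by 0.02 without and 0.34 with CGG at the gene level. Of its 44 features, 38 were higher without CGG (median 0.21) and all 44 with it (median 0.29). HNRNPL, a CA-repeat binder, differed at the gene level by 0.02 and 0.47, whereas its paralog HNRNPLL lay lower, by -0.28 and -0.42. Of the 34 features of HNRNPL, 10 were higher without and 22 with CGG, with medians of -0.07 and 0.10. Whether the repeat construct altered the overexpression-knockdown difference was tested as an interaction: 0 of the 40 members were called in limma and 0 had an unadjusted p under 0.05, where 0% and 3.83% of clusters did. The smallest p belonged to HNRNPL at 0.45, HNRNPUL2 at 0.37 and KHSRP at 0.31 (adjusted p = 0.999 each).

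EWSR1, TAF15 and TARDBP, prion-like proteins linked to neurodegeneration, had medians of 0.15 and 0.27 with no call, and EWSR1 was at 0.19 and 0.47. The RBM proteins, in which RBM5, RBM6 and RBM10 form a related trio of exon regulators, had medians of 0.15 and 0.32. RBMX, an X-linked hnRNP, differed by 0.41 and 0.33, with 27 and 26 of 29 features higher and 2 called without CGG.

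**Figure D4:**
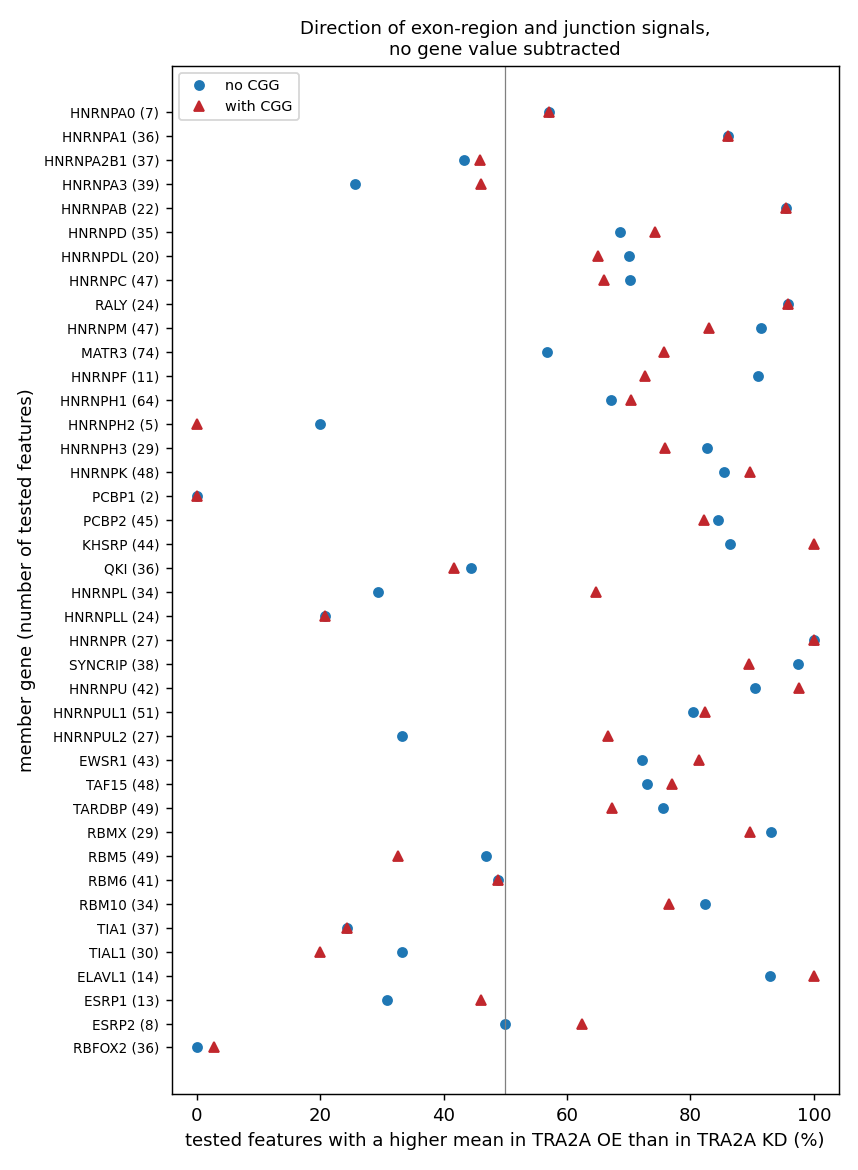
Percent of the tested exon regions and junctions of each member with a higher mean in TRA2A OE than in TRA2A KD cells, without CGG (circles) and with CGG (triangles), from feature values with no gene value subtracted and with the number of features beside each name. RALY, HNRNPR and ELAVL1 lie near 100% in both backgrounds and KHSRP with CGG, RBFOX2 lies near 0, and the line marks 50%.

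Other splicing regulators, a second list of 40 symbols of which 38 were tested, held further called genes. PTBP1, a repressor that binds pyrimidine tracts, was higher in TRA2A OE than in TRA2A KD cells by 0.81 (adjusted p = 0.0297) and with CGG by 0.82 (0.0307). PTBP3 was higher by 0.86 (0.0228) and 0.93 (0.0121), and DAZAP1, an hnRNP-like protein, by 0.95 without CGG (0.0311). That makes 3 of 38 without and 2 of 38 with CGG, beside 1 of 40 among the members. In cells with knockdown PTBP2, the neuronal paralog, rose by 1.38 against control (0.00665) and by 1.78 against CGG (0.00288), while PTBP3 fell by 1.17 (0.000737) and by 0.85 (0.0491), which are the 2 genes of that list called in each case.

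For the repeat construct alone, no member passed the test at the gene level. Of the 40, 0 were called between CGG and control cells in limma beside 0.669% of clusters, and 10 had an unadjusted p under 0.05 beside 12.7%. ESRP1, QKI and PCBP1 had the smallest p. QKI, a KH-domain regulator of splicing and myelin genes, read 16.26, 16.34 and 16.48 in control, 16.04, 15.60 and 15.77 in CGG, 15.93, 15.92 and 15.93 in TRA2A OE and 15.91, 15.92 and 16.17 in TRA2A KD cells. The controls were above all other arrays, and the difference for CGG was -0.56 (adjusted p = 0.113), beside -0.43 (0.177) and -0.36 (0.316) for overexpression and knockdown. PCBP1, a poly(C) binder encoded by an intronless gene, read 14.68, 14.90 and 14.79 in control and 15.57, 15.23 and 15.22 in CGG cells, a difference of 0.55 (0.159).

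In single features on their own signal, 60 of 1346 were called between CGG and control cells, 22 higher and 38 lower, in 24 members, beside 5.81% of all features (3.84% higher, 1.97% lower). HNRNPDL, an A/B-type protein, had 8 of 20 features called lower and 1 higher, QKI 8 of 36 lower and 1 higher, and HNRNPH1 6 of 64 lower and 1 higher. All of them also had features called below the same controls in other treated groups: HNRNPDL 5 in TRA2A OE and 8 in TRA2A KD cells, QKI 5 in each and HNRNPH1 6 and 1, where 2.63% and 4.23% of all features were called lower. At the gene level HNRNPDL read 15.09, 14.59 and 15.16 in control and 14.43, 14.23 and 14.55 in CGG cells (-0.54, adjusted p = 0.172), and its CGG TRA2A OE arrays at 14.76, 14.97 and 15.04 were again above the CGG arrays (0.52, 0.346).

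Where TRA2A was altered, no member was called for the construct either. In overexpressing cells 0 of 40 were called for CGG in limma, with 0 at an unadjusted p under 0.05, beside 0.0059% and 5% of clusters. In knockdown cells the counts were 0 and 0 beside 0% and 4.73%. The arrays of 5 members did not overlap in each case, beside 11.4% and 9.39% of clusters. HNRNPLL, with the smallest p in knockdown cells, was higher by 0.49 (adjusted p = 0.998). The 3 comparisons of CGG with its absence share no array. CGG against control had the same sign as the construct within overexpressing cells for 16 of 40 members, and as within knockdown cells for 17 of 40, or 40% and 42.5%, where 45% and 45.7% of all clusters had the same sign.

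Exon-level tests used the feature value minus the value of its gene on the same array, so that a rise means more signal of that region or junction than the gene as a whole shows. Against control, 13 of 1346 member features were called for CGG (11 higher, 2 lower), 8 for TRA2A OE (5 and 3) and 6 for TRA2A KD cells (5 and 1), beside 0.602%, 0.191% and 0.303% of all features. By direction, 0.318% of all features were higher and 0.284% lower for CGG, 0.0541% and 0.136% for TRA2A OE, and 0.101% and 0.201% for TRA2A KD cells. They were 14 different features of 11 genes, 7 junctions and 7 exon regions. Between overexpression and knockdown 0 were called in limma with or without CGG, beside 0.023% and 0.0273%, with 51 and 79 at an unadjusted p under 0.05 (4.97% and 5.94% of all). Within CGG cells overexpression and knockdown also gave 0, beside 0.00563% and 0.0078%, with 96 and 80 at that p (8.83% and 4.85% of all). The interaction with the construct gave 0 beside 0%, with 7 at that p (2.36% of all). Feature coordinates were not used here, and a feature is named by its identifier on the array, with PSR for an exon region and JUC for a junction.

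TAF15, a FET family protein that joins transcription and RNA processing, held the feature with the largest change relative to its gene between CGG and control cells. The exon region PSR1700154762 read 9.43, 10.14 and 9.12 in control and 12.47, 11.83 and 13.20 in CGG cells. It read 9.24, 9.71 and 9 in TRA2A OE and 9.41, 9.35 and 10.24 in TRA2A KD cells, against 12.42, 12.02 and 12.18 and 12.76, 12.29 and 12.59 with the construct. All 9 arrays with the construct were above all 9 without, whatever the level of TRA2A.

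Relative to its gene this region rose by 3.36 ± 0.31 with CGG (10.3-fold, adjusted p = 2.12e-05), by 2.82 in overexpressing cells (0.000528) and by 3.00 in knockdown cells (0.000128). It was the 1 member feature called in each of the last pair, beside 0.0554% and 0.097% of all features. The gene value of TAF15 differed by -0.43 for CGG (0.259, not called), and 33 of its 48 features were lower. Groups that received the construct hold transfected FMR1 sequence, and a change in TAF15 RNA and a signal of that sequence on these probes cannot be told apart here. A second TAF15 region, PSR1700154752, rose by 1.37 with CGG (0.042), with 0.52 and 0.83 under overexpression and knockdown, neither called.

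QKI, MATR3, HNRNPH3 and RBMX held further features that were called higher in CGG cells than in control. The QKI junction JUC0600059601 read 11.03, 12.51 and 11.88 in control and 13.87, 13.04 and 13.12 in CGG cells, and rose relative to its gene by 2.09 ± 0.30 (adjusted p = 0.00234). Arrays with the construct also lay above those without under overexpression (1.03, 0.926) and under knockdown (1.35, 0.26), with no overlap and no call. The MATR3 region PSR0500160764 read 9.73, 9.86 and 10.29 in control and 11.63, 12.64 and 12.48 in CGG cells and rose by 2.40 ± 0.37 (0.00378), beside 0.59 and 1.11 under overexpression and knockdown. The HNRNPH3 junction JUC1000051718 rose by 1.63 in CGG cells (0.00186), beside 1.10 in TRA2A OE (0.0647) and 0.79 in TRA2A KD cells (0.169) against the same controls, and the construct within overexpressing and knockdown cells gave -0.07 and -0.05. The RBMX region PSR0X00179097 rose by 1.75 in CGG cells (0.0446), beside 0.65 in TRA2A OE (0.485) and 1.72 in TRA2A KD cells (0.0641), and the construct within overexpressing and knockdown cells gave -0.19 and -0.41. Where TRA2A was altered, neither of these features had a higher mean with the construct.

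**Figure D5:**
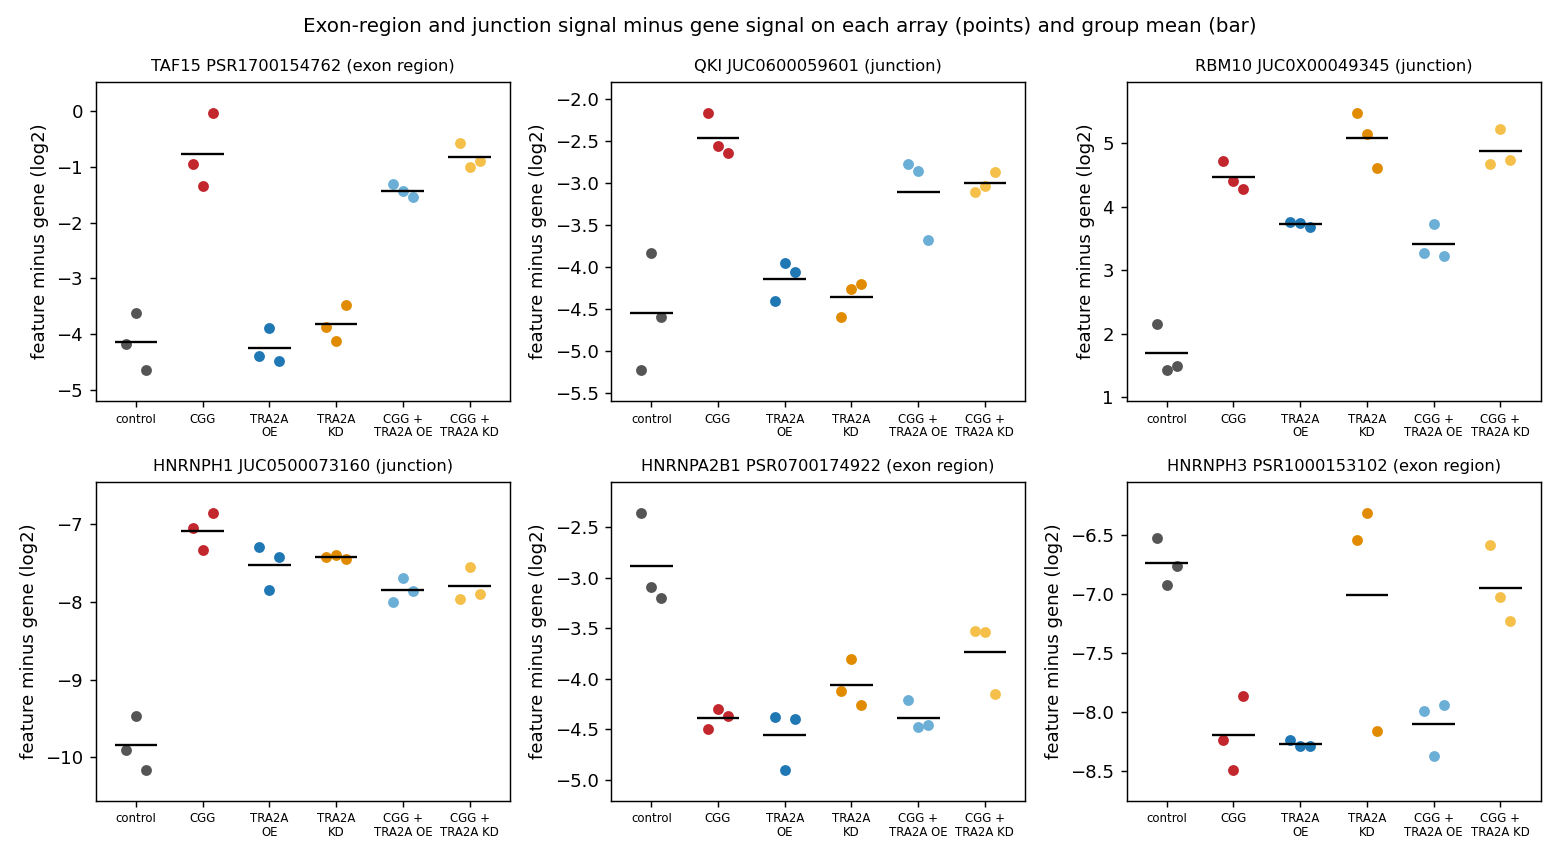
Feature signal minus the gene signal (log2) on each of the 18 arrays, by group, for 6 features of TAF15, QKI, RBM10, HNRNPH1, HNRNPA2B1 and HNRNPH3, with a bar at the mean of 3 arrays. The TAF15 region is high in the 3 groups with the construct, and the RBM10 and HNRNPH1 junctions are low in the controls alone.

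Of the called features, 6 changed the same way in CGG, TRA2A OE and TRA2A KD cells, which share the controls. The RBM10 junction JUC0X00049345, in an X-linked gene whose product promotes exon skipping, read 9.12, 8.91 and 9.08 in control and from 11.03 to 12.93 in the 15 treated arrays. It rose by 2.77 (adjusted p = 1.97e-05), 2.04 (0.00191) and 3.38 (1.11e-05). Among treated groups it was higher after knockdown: 12.93, 12.79 and 12.06 in TRA2A KD against 11.10, 11.73 and 11.54 in TRA2A OE cells, and 12.20, 12.51 and 12.28 against 11.29, 11.24 and 11.03 with CGG. On its own signal it was lower by 1.14 under overexpression in each background (adjusted p = 0.00746 and 0.00805). Relative to its gene the differences of -1.34 and -1.47 were not called (0.113 and 0.0737).

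The HNRNPH1 junction JUC0500073160 read 6.78, 7.66 and 6.88 in control and from 8.93 to 10.03 in the treated arrays, and rose by 2.76 (adjusted p = 3e-06), 2.32 (6.62e-05) and 2.42 (4.5e-05). Junctions of MATR3, HNRNPDL and RBM6 rose by 1.34 to 1.82 in the 3 comparisons. The sixth, the ESRP1 region PSR0800156780, fell relative to its gene by 0.84 (0.0395), 1 (0.0286) and 1.08 (0.0135), while its own signal differed by -0.13, -0.29 and -0.18 and the subtracted gene value by 0.71, 0.71 and 0.90. In HNRNPA2B1, the exon region PSR0700174922 read 14.11, 13.45 and 13.56 in control against 11.87 to 13.28 in the treated arrays, and fell by 1.51 in CGG (0.00667) and by 1.68 in TRA2A OE cells (0.00771), beside -1.18 in TRA2A KD cells (0.0531). The HNRNPH1 region PSR0500197938 fell by 1.67 in TRA2A OE cells (0.0486). Of the junctions above, those of HNRNPH1, MATR3 and RBM6 had control means of 7.11, 7.01 and 6.16. These lie under the exon-level filter, a mean above 7.46 over all arrays, so these junctions were tested only because the treated arrays read higher. In controls the HNRNPH1 and MATR3 junctions read -9.84 and -9.7 relative to their genes.

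These exon-level counts depended on single arrays. Without control array 3 they were 25 for CGG, 22 for TRA2A OE and 15 for TRA2A KD cells. Without control array 1 or 2 the count for TRA2A OE was 2 and 4. It was 4, 3 and 5 without TRA2A OE array 1, 2 and 3, and the count for TRA2A KD was 3 without TRA2A KD array 1. The TAF15 region and the RBM10 junction stayed called without any single array. So did the HNRNPH1 junction, but it passed the filter only through the treated arrays, so this adds no support for it. Other calls were lost without control 1 or TRA2A OE arrays in the overexpression comparison: HNRNPDL without control 1 or TRA2A OE 3, HNRNPA2B1 without control 1 or TRA2A OE 2, and the MATR3 junction and the ESRP1 region without control 1 or 2 or any TRA2A OE array. RBM6 lost its call for overexpression without those 5 and CGG TRA2A OE 1 or 3, and for knockdown without control 1 or 2 or any TRA2A KD array. For knockdown HNRNPDL lost its call without control 1 or any TRA2A KD array, and ESRP1 without TRA2A KD 1. The ESRP1 region for CGG was lost without 11 of the 18 arrays (adjusted p up to 0.151) and the HNRNPH1 region for overexpression without 13 (up to 0.228).

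HNRNPH3, an F/H protein, held a region whose arrays did not overlap between overexpression and knockdown in either background, without a call at the exon level. The region PSR1000153102 read 9.09, 8.91 and 8.93 in TRA2A OE against 10.34, 10.55 and 9.18 in TRA2A KD cells, and 9.15, 8.89 and 9.34 against 10.40, 9.84 and 9.85 with CGG. Control arrays were at 10.77, 10.12 and 10.37 and CGG arrays at 8.76, 8.56 and 9.19. Without CGG the gap was narrow, 9.09 against 9.18 on TRA2A KD array 3, which was hybridised again. The region was thus low in CGG cells as in both overexpressing groups, and near the controls after knockdown in most arrays. It did not follow the level of TRA2A throughout, since TRA2A read 14.57 in CGG and 14.62 in control cells. On its own signal it fell by 1.58 in CGG (adjusted p = 0.00526) and by 1.44 in TRA2A OE cells (0.00956), and relative to its gene the values were -1.46 (0.079) and -1.54 (0.0867). Overexpression and knockdown differed by -1.27 (0.497) and -1.16 (0.566) relative to the gene. On its own signal the region differed by -1.05 (0.0681) without and -0.9 (0.129) with CGG, neither called.

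For overexpression against CGG cells, the HNRNPLL junction JUC0200070061 had the smallest p of the member features. It was lower by 1.27 relative to its gene (adjusted p = 0.148) and fell by 1.65 on its own signal (0.00245). Features with an unadjusted p under 0.05 were mostly lower in CGG TRA2A OE than in CGG TRA2A KD cells, 75 of 79, beside 4.21% of all features lower and 1.73% higher. Exon and gene values are linked here, since the gene value that was subtracted was higher in most members.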

How the data were processed

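The authors deposited log2 values for transcript clusters and for exon regions and junctions of 18 arrays, made by SST-RMA (robust multi-array averaging after signal space transformation) per the file headers and sample descriptions, and the Transcriptome Analysis Console is named without a version per the submitters' processing notes. No raw intensities were used here, so the number of arrays limits the precision. Groups and replicate numbers came from the array titles, and 0 value columns were left unmapped.

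Using limma 3.58.1 in R 4.3.3 (functions lmFit and eBayes, package data.table version 1.17.8), 1 model of the 6 group means was fitted over all 18 arrays without covariates. It ran on 67854 transcript clusters with a mean above the median of such means (4.14). At the exon level it ran on the feature value minus the gene value, for 230888 features with a mean above 7.46 in genes with at least 3 features. A call was a two-sided Benjamini-Hochberg adjusted p under 0.05 over all tested. Both steps were tested on simulated data.

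The members and lists were chosen with earlier results of these data known. Named by rule were called members and features (at most 5 a direction), or the 3 with the smallest p, and the extremes of signal and range. Other members and features described were chosen after their values were seen, as were the tests on feature values without subtraction and the tests of whether CGG altered the overexpression or knockdown change. Alternatives were other filters, quantile normalization, other variance models, a replicate block, rehybridisation as a covariate, a 2-fold rule and leaving out each array. No probe or gene sequence was used here.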

Additional observations from a re-analysis of the deposited data

Results flagged for a closer look

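A small set of features differed between cells with altered TRA2A and control by another amount than between such cells and CGG cells when both had the construct. The test of that difference in limma was chosen after seeing the data. For overexpression (its change within CGG cells minus its change against control), the values were -3.09 for the RBM10 junction JUC0X00049345 (adjusted p = 0.0032), -3.08 for the HNRNPH1 junction JUC0500073160 (0.000588) and 1.48 for the ESRP1 region PSR0800156780 (0.0493). For knockdown they were -2.97 for the RBM10 junction (0.00477), -3.14 for the HNRNPH1 junction (0.000512) and -2.34 for the MATR3 junction JUC0500055416 (0.0202). In each of these features the control arrays stand apart from the other 5 groups, and the same controls and CGG arrays enter both tests. The HNRNPH1 and MATR3 junctions passed the exon-level filter only through the treated arrays. All of these features had already been called against control, and the same controls enter the values here, which are therefore no separate support. Against control, agent and transfection cannot be told apart, and the cause of these values was not tested. At the gene level 0 of the 40 members were called in limma for either difference, beside 0.246% and 0.175% of all clusters, and 6 and 7 had an unadjusted p under 0.05, beside 10.7% and 10.5%. The smallest adjusted p of a member was 0.0854 and 0.0961, both for ESRP1, at -1 and -1.02. The value of 1.48 for the ESRP1 region thus holds the subtracted gene value. On its own signal that region changed with overexpression by 0.18 within CGG cells and by -0.29 against control. At the exon level 0.0346% and 0.0333% of all features were called for the overexpression and the knockdown difference.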

How the results depend on the processing

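No result changed direction under any alternative, and scaling moved the median of all clusters by at most 0.02. Of the comparisons of single named members and features with their alternatives, 1465 kept their side of the threshold, 125 lost a call and 29 gained one. Counts are of members at the gene level and of features at the exon level, and the cause of the moves below was not tested. Where no share of all clusters or features stands beside a count, it is not read as a result about the members.

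At the gene level, the single call for overexpression against control (ESRP1) and that for overexpression against knockdown with CGG (RALY) went to 0 without the low-signal filter and after quantile normalization. The count for CGG against control was 1 after quantile normalization. With a filter at the 75th percentile the counts against control were 1 for CGG, 2 for overexpression and 2 for knockdown, and with a trended and robust variance they were 3, 3 and 3. With the variance of the compared arrays only, and with the 2-fold rule at an unadjusted p under 0.05, all 4 single calls (overexpression and knockdown against control, and overexpression against knockdown with and without CGG) went to 0. Rehybridisation as a covariate left 0 calls for overexpression against knockdown in both backgrounds. Same-numbered arrays share only a number: their deviations from the group means correlated at -0.12 to 0.16 over 45 pairs, 2 of them over 0.1, and the own number gave the best correlation in 15 of the 45 pairs. With the replicate number as a block the counts for overexpression against control and for overexpression against knockdown with CGG were 0 each, and that block moved no other count past 1.5 times. Without 1 array at a time the counts ranged from 0 to 1 for CGG against control, 0 to 2 for overexpression and 1 to 2 for knockdown against control, and 0 to 1 for overexpression against knockdown with and without CGG.

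At the exon level, without the filter the construct gave 3 calls within overexpressing and 5 within knockdown cells. With the 75th percentile filter, which tests fewer features, there were 7 for CGG and 5 for overexpression against control and 1 for overexpression against knockdown with CGG. Subtracting the mean of the gene's other features gave 1 call each for overexpression within CGG and for overexpression against knockdown in both backgrounds. The variance of the compared arrays only left 3, 0 and 1 against control for CGG, overexpression and knockdown, and the rehybridisation covariate gave 22 for CGG and 11 for knockdown against control and 1 for overexpression within CGG. The 2-fold rule gave 66, 64 and 32 against control, 15 and 28 for overexpression and knockdown within CGG, 15 and 30 for overexpression against knockdown without and with CGG, 7 and 11 for the construct within overexpressing and knockdown cells, and 2 for the interaction. With no gene value subtracted there were 60, 67 and 72 against control, 3 and 8 within CGG, and 28 and 26 for overexpression against knockdown. Leaving out 1 array gave 9 to 25, 2 to 22 and 3 to 15 calls against control, 0 to 1 for overexpression against knockdown in each background, and 1 to 2 for the construct in knockdown cells, where 2 came without CGG array 3. With 3 arrays a group, a difference of 1 on the log2 scale is often missed, and a call absent here does not show that 2 groups are alike.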
